A study of Drosophila ananassae and Drosophila erecta and Drosophila sechellia with 40 samples.

Results

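Transcript levels in the adult antenna of D. ananassae were compared with those of D. sechellia, D. simulans and D. erecta, a set of species from the melanogaster subgroup. A gene entered the comparison where its mean was above 0 in all 4 species and above 50 normalized transcript counts in at least one of them. This held for 7820 of the 25214 gene names of the adult antenna, which came to 7513 genes once names with identical values in the 4 species were joined, because such names cannot be told apart. A gene was taken as specific to D. ananassae where its mean lay outside the means of all 3 other species, and its log2 difference was that of D. ananassae minus the mean log2 value of the 3 others. The study profiled antennal discs and antennae of these species and D. virilis at 4 stages in 40 libraries, of which 8, a pair per species, belong to the comparison. All 4 groups were wild-type flies of a single strain, with no treatment in any group. They were reared on cornmeal medium at 20 °C with 16 hours of light and 8 of dark. Their antennae were taken from males and females 7 to 10 days after eclosion. The study describes a pool both as about 300 adult flies and as about 300 antennae.

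The funiculus, or outer segment, of the fly antenna is the main olfactory organ. Its sensilla house olfactory receptor neurons, each of which usually expresses one odorant receptor (Or) together with the co-receptor Orco, or ionotropic receptors (Ir) together with co-receptors such as Ir25a and Ir8a. Support cells around the neurons secrete odorant-binding proteins (Obp), odorant-degrading enzymes and other perireceptor proteins into the sensillum lymph. In RNA from whole antennae, fewer cells of a type and less RNA per cell cannot be told apart.

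Values are normalized read counts per gene, not divided by transcript length, so they are compared between species and not between genes. Each species was mapped to its own transcriptome, so a difference in gene model or in the assigned ortholog cannot be told apart from a difference in transcript level. Values of the single libraries, called a and b within each species, were recovered from the species means for 7342 of the 7513 genes. The 171 genes without them all reached at least 10008 normalized counts in some species, and for those only the authors' means are given, without a test. The recovered counts came to 13909647 and 9316673 reads in the D. ananassae libraries and 12931146 to 19504932 in the other 6, and the median absolute log2 difference between both libraries of a species was 0.147 in D. ananassae, 0.113 in D. sechellia, 0.147 in D. simulans and 0.137 in D. erecta. Among markers of other cells, photoreceptor genes with library values summed to 8954 and 7774 in D. ananassae, against D. sechellia at 4662 and 51484, D. simulans at 4038 and 2937 and D. erecta at 4209 and 4273, so D. sechellia b stood apart. These photoreceptor sums covered 16 listed genes, and most of the D. ananassae sums came from genes outside the comparison. Of the 8 photoreceptor genes inside it, 6 had a D. ananassae mean below all 3 other species and 1 a mean above them. Their median log2 difference was -2.59, though only 1 was called lower and 1 higher. The sums therefore do not show a higher photoreceptor level in D. ananassae. Heat shock genes summed to 140642 in D. ananassae a and 52460 in D. ananassae b, against 19747 to 45242 in the other 6 libraries. The neuronal marker elav was higher in D. ananassae than in D. sechellia (0.96, limma adjusted p = 0.0015) and D. erecta (0.79, limma adjusted p = 0.0032) and lower than in D. simulans (-1.57, limma adjusted p = 0.00029). Against the mean of the 3 this left 0.06 ± 0.11 (SE, 2 libraries per species, limma adjusted p = 0.63). Orco had means of 50964 in D. ananassae, 44969 in D. sechellia, 50676 in D. simulans and 43461 in D. erecta.

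D. ananassae was the most distant of the 4 species by the share of genes outside the others, the gaps and the median difference given here. Its mean lay outside the 3 others in 4637 of 7513 genes (61.7%), above them in 2333 and below them in 2304. The same share was 45.0% (3381 genes) for D. sechellia, 41.1% for D. simulans and 52.1% for D. erecta, each set against its own 3 others. Every gene has 1 highest and 1 lowest species, so these shares are read against each other and not against 0. The median gap of the genes outside to the nearest other species was 0.49 on the log2 scale for D. ananassae, against 0.29 for D. sechellia, 0.34 for D. simulans and 0.37 for D. erecta. Of the 4637 genes, 616 (13.3%) lay outside by less than 0.1, while 2876 genes lay within the range of the others. A gap above 1 on the log2 scale was found in 1181 genes for D. ananassae, 489 of them higher and 692 lower, against 427 for D. sechellia, 648 for D. simulans and 759 for D. erecta. At a gap above 3 there were 226 genes for D. ananassae, against 60 for D. sechellia, 80 for D. simulans and 112 for D. erecta. The median absolute difference was 0.64 for D. ananassae, against 0.48, 0.43 and 0.54 for D. sechellia, D. simulans and D. erecta. These are descriptions of species means, with 1 strain per species.

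**Figure D1:**
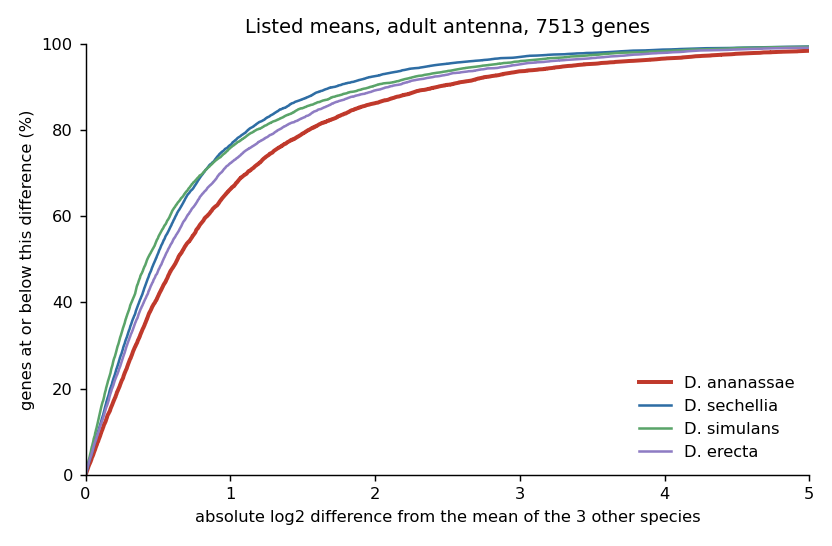
Cumulative share of 7513 genes (y axis, percent) by the absolute log2 difference of a species from the mean log2 value of the 3 other species (x axis), from the authors' means in the adult antenna. The line of D. ananassae lies lowest over most of the range, with a median of 0.64, against 0.48, 0.43 and 0.54 for D. sechellia, D. simulans and D. erecta.

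At the level of libraries, both D. ananassae libraries lay outside all 6 others in 3478 of 7342 genes (47.4%), above them in 1787 and below them in 1691. The same count was 2286 (31.1%) for D. sechellia, 2048 (27.9%) for D. simulans and 2787 (38.0%) for D. erecta. In limma, 5133 of 7342 genes (69.9%) differed between D. ananassae and the mean of the 3 others at an adjusted p under 0.05, with 2600 (35.4%) higher and 2533 (34.5%) lower in D. ananassae. Set against its own 3 others in the same fit, D. sechellia differed in 58.8% of genes, D. simulans in 53.7% and D. erecta in 64.8%. Of the 5133 genes, 2361 (32.2% of all genes tested) differed by more than 1 on the log2 scale. The median log2 difference over all genes tested was -0.0034. Against each of the 3 species in turn, 1173 genes were called higher (16.0%) and 1239 lower (16.9%) in all 3 contrasts, and these 2412 genes (32.9%) are called D. ananassae-specific by test below. A call at this rate is the usual case for a gene, so single genes and lists are read against these shares. The p-values measure the spread between 2 library preparations from pooled antennae of a single strain, not between strains of a species.

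The genes with the largest excess in D. ananassae were low, though to differing degrees, in the subgroup species. The uncharacterized gene CG33017 had 3889 and 3910 normalized counts in D. ananassae, against D. sechellia at 1.11 and 2.97, D. simulans at 21.1 and 12.1 and D. erecta at 2.30 in both libraries. CG7135 had 2809 and 2713 in D. ananassae, against D. sechellia at 2.22 and 1.49, D. simulans at 2.55 and 1.86 and D. erecta at 177 and 122 (7.97 ± 0.18, SE, 2 libraries per species, limma adjusted p = 6.3e-06), so D. erecta stood well above the other subgroup species. The gustatory receptor gene Gr10b had 1063 and 958 in D. ananassae, against D. sechellia at 7.79 and 5.94, D. simulans at 2.55 and 0 and D. erecta at 4.60 and 6.90. Its log2 difference was 7.78 ± 0.47 (SE, 2 libraries per species, limma adjusted p = 6.6e-05). DNaseII, an acid deoxyribonuclease, was measured at similar levels in the 3 subgroup species. It had 12412 and 12637 counts in D. ananassae, against D. sechellia at 74.5 and 99.6, D. simulans at 90.6 and 79.8 and D. erecta at 85.1 and 80.5, a difference of 7.19 ± 0.13 (adjusted p = 2.8e-06) or 146-fold on the log2(value + 1) scale. These genes were chosen among those whose D. ananassae libraries lay outside all 6 others, as they did in 3478 of 7342 genes (47.4%).

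Further genes at this end encode a cuticle protein (Cpr60D, 7.75 ± 0.30), a serpin (Spn42Db, 6.34 ± 0.22), a Skp1-type ubiquitin ligase component (SkpB, 6.23 ± 0.18), the bHLH protein Cato (5.49 ± 0.23), which acts in the development of chordotonal sense organs, the amylase-related Amyrel (5.37 ± 0.48) and Spz5, a ligand of the neurotrophin-like Spätzle family (4.36 ± 0.34). All had an adjusted p of 0.00024 or less. Metallothioneins, small metal-binding proteins, are listed under the joined name MtnC/MtnB. They reached 4200 and 4101 in D. ananassae, against D. sechellia at 83.4 and 140, D. simulans at 296 and 3.71 and D. erecta at 41.4 and 59.8. The libraries of D. simulans differed widely, and without either library of D. ananassae the adjusted p of MtnC/MtnB was above 0.05 (0.058 without a, 0.057 without b), against 0.011 with all libraries.

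Of the genes with a name other than a CG number, the 3 with the largest deficit in D. ananassae had at least 853 counts in every library of the 3 others. The gene amd, which acts in the catecholamine chemistry of cuticle formation, had 2.01 and 0 in D. ananassae, against D. sechellia at 6718 and 6103, D. simulans at 1750 and 1779 and D. erecta at 3857 and 5048. Tob, of the antiproliferative BTG/Tob family, had 0 and 1.41 in D. ananassae, against D. sechellia at 1606 and 1404, D. simulans at 4323 and 5167 and D. erecta at 853 and 996. The cytochrome P450 gene Cyp4d8 had 0 and 2.83 in D. ananassae, against D. sechellia at 2465 and 2644, D. simulans at 1268 and 1527 and D. erecta at 1145 and 1346. With so few reads in D. ananassae, the fitted log2 differences of -11.05 ± 0.40 for amd, -10.23 ± 0.33 for Tob and -9.71 ± 0.48 for Cyp4d8 depend on the pseudocount (limma adjusted p of 1.9e-05, 1.3e-05 and 3.8e-05).

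The translation factor gene eIF-5A, which every cell uses, had 34.1 and 31.1 in D. ananassae, against D. sechellia at 8514 and 8585, D. simulans at 5015 and 5273 and D. erecta at 6990 and 7761 (-7.68 ± 0.08, adjusted p = 1.3e-06). The part that the assigned gene model has in this value was not tested. The same gene was low in D. ananassae at the pupal stages p8 (-13.08) and p40 (-10.67) too, named by the hours after puparium formation. For amd, D. ananassae was higher at p8 (2.18) and lower at p40 (-2.31). Further genes at this end were Buffy, a Bcl-2 family member (-6.74 ± 0.31), Osi8, of the Osiris family (-6.54 ± 0.28), swa, which acts in bicoid RNA localization in the oocyte (-6.16 ± 0.69), and the transcription factor genes rn (-6.07 ± 0.12) and toy (-6.01 ± 0.41). For rn, swa and toy the subgroup itself was uneven, with 1 species far above the others. The gene rn had 1.0 and 1.41 in D. ananassae, against D. sechellia at 2442 and 2390, D. simulans at 28.1 and 27.8 and D. erecta at 50.6 and 40.3. For swa it was D. simulans that stood high, with 6.02 and 0 in D. ananassae, against D. sechellia at 45.6 and 41.6, D. simulans at 4673 and 4688 and D. erecta at 27.6 and 36.8. For toy it was D. sechellia, with 2.01 and 0 in D. ananassae, against D. sechellia at 1121 and 1196, D. simulans at 86.1 and 64.0 and D. erecta at 13.8 and 16.1.

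**Figure D2:**
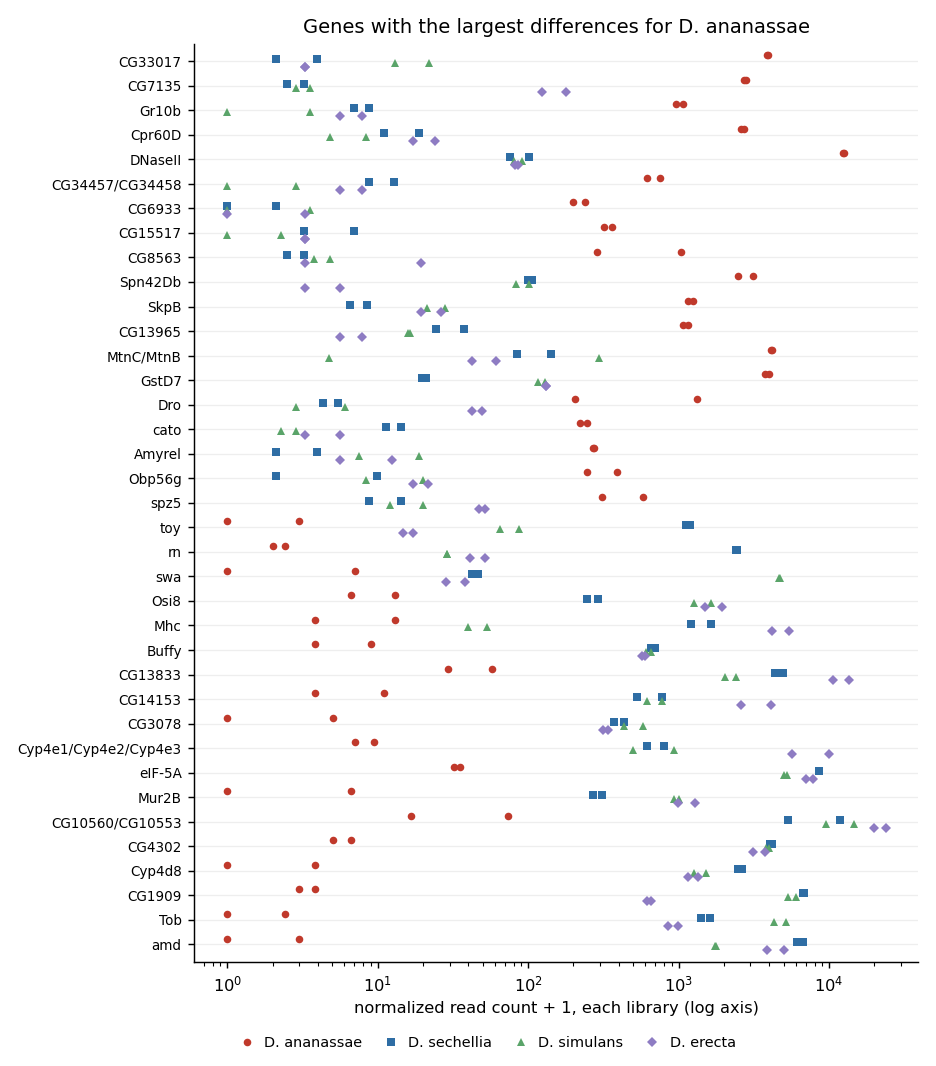
Normalized read count + 1 (log axis) in each of the 8 libraries for the genes with the largest differences for D. ananassae, ordered from the highest to the lowest log2 difference. D. ananassae libraries (circles) lie above all 6 others from CG33017 to spz5 and below all 6 others from toy to amd. The choice of these genes required this.

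Odorant receptors were lower more often than higher in D. ananassae. Of 27 Or genes tested, 13 were called lower, 7 higher and 7 were not called, with a median log2 difference of -0.38 against -0.0034 over all genes, and 8 fell by more than 1. Leaving out single libraries gave 12 to 14 lower and 5 to 7 higher. The share called, 74.1%, was close to the 69.9% of all genes, and 48.1% were lower, against 34.5% of all genes.

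The 4 lowest differences among Or genes called were those of Or22a/Or22b, Or43b, Or35a and Or98a. Or22a and its copy Or22b, whose products respond to fruit esters in D. melanogaster, are joined in the table and had 491 and 503 in D. ananassae, against D. sechellia at 4297 and 4440, D. simulans at 2499 and 2341 and D. erecta at 6723 and 6548. This was a difference of -3.05 ± 0.06 (SE, 2 libraries per species, limma adjusted p = 6.2e-06), and the lowest subgroup library lay far above both D. ananassae libraries. Or43b, the receptor of a basiconic sensillum neuron, was the lowest of all Or genes tested. It had 267 and 288 in D. ananassae, against D. sechellia at 3718 and 3826, D. simulans at 2766 and 2928 and D. erecta at 1497 and 1546 (-3.19 ± 0.07, adjusted p = 6.3e-06). Or35a, a broadly tuned receptor of coeloconic sensilla, had 106 and 73.5 in D. ananassae, against D. sechellia at 380 and 517, D. simulans at 494 and 575 and D. erecta at 497 and 557 (-2.48 ± 0.19, adjusted p = 0.00013). Or98a had 56.1 and 70.7 in D. ananassae, against D. sechellia at 220 and 207, D. simulans at 250 and 321 and D. erecta at 504 and 512 (-2.30 ± 0.13, adjusted p = 5.9e-05). In each of these 4 rows the D. ananassae libraries lay below all 6 others.

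Smaller deficits were found for Or56a, the receptor for the microbial odor geosmin (-1.54 ± 0.10), Or65a, of a trichoid sensillum (-1.38 ± 0.13), Or13a (-1.35 ± 0.14) and Or43a (-1.12 ± 0.11), with adjusted p of 0.00041 or less, and each was also called against all 3 species. Or47b, the trichoid receptor that acts in male courtship, had 956 and 896 in D. ananassae, against D. sechellia at 1533 and 1844, D. simulans at 1383 and 1518 and D. erecta at 1042 and 1390 (-0.63 ± 0.14, adjusted p = 0.0084). The D. ananassae libraries lay below all 6 others, but Or47b was not called against each species, and without D. ananassae b its adjusted p was 0.055.

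Only Or69a and Or67b rose by more than 1 in D. ananassae among the Or genes called. Or69a had 1674 and 1625 in D. ananassae, against D. sechellia at 573 and 602, D. simulans at 265 and 306 and D. erecta at 453 and 587 (1.90 ± 0.12, adjusted p = 7.4e-05). Or67b had 750 and 709 in D. ananassae, against D. sechellia at 509 and 585, D. simulans at 196 and 229 and D. erecta at 304 and 380 (1.10 ± 0.12, adjusted p = 0.00054). In D. melanogaster both receptors belong to the same class of basiconic sensillum, ab9. Or92a, Or9a, Or83c and Or7a were not called, with log2 differences of -0.03, 0.13, 0.16 and 0.09. The joined Or33b/Or33a had the highest difference of the Or genes (3.82) without passing the test (adjusted p = 0.053).

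Some receptors lie outside the comparison because a species is listed at 0. Or85a, Or67a, Or88a and Or65b were listed at 0 in D. ananassae, against means of 1215, 1084, 1164 and 940 for D. sechellia, 1174, 674, 549 and 434 for D. simulans and 1233, 679, 504 and 797 for D. erecta. From a listed 0 alone, the lack of an ortholog and the lack of reads cannot be told apart. D. simulans was likewise listed at 0 for Ir8a, Or2a, Or47a and Or85f. Conversely, Ir87a had a mean of 1639 in D. ananassae, against D. sechellia at 2.79, D. simulans at 0 and D. erecta at 2.30, and Or74a, a larval receptor in D. melanogaster, had 247 in D. ananassae, against 2.79, 1.91 and 0.

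Ionotropic and gustatory receptors differed in 16 of 17 genes tested, 10 lower and 6 higher, and the share of 94.1% stands beside 69.9% of all genes. The median log2 difference was -0.59. The co-receptor Ir25a fell in D. ananassae to 3202 and 2247, against D. sechellia at 6789 and 6605, D. simulans at 5005 and 6244 and D. erecta at 5529 and 6406 (-1.18 ± 0.17, limma adjusted p = 0.0014). Of the other Ir genes, Ir76a (-1.47 ± 0.10), Ir75c/Ir75b (-1.36 ± 0.07), Ir31a (-1.36 ± 0.10) and Ir75d (-1.16 ± 0.10) were lower as well. Ir84a was higher (0.46 ± 0.13, limma adjusted p = 0.019), though not against D. erecta, and so was Ir41a, given below. Ir31a did not separate from D. simulans, with 465 and 585 in D. ananassae, against 535 and 572 in D. simulans.

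Ir40a and Ir93a were higher in D. ananassae, whereas Ir25a, the co-receptor with which both act in humidity sensing in D. melanogaster, was among the lower genes above. Ir40a, expressed in dry-sensing neurons of the sacculus in D. melanogaster, had 1953 and 2190 in D. ananassae, against D. sechellia at 526 and 434, D. simulans at 1483 and 1459 and D. erecta at 382 and 451 (1.64 ± 0.11, adjusted p = 9.7e-05). Ir93a, with which it acts, had 1976 and 1925 in D. ananassae, against D. sechellia at 395 and 346, D. simulans at 1700 and 1675 and D. erecta at 317 and 444 (1.66 ± 0.14, adjusted p = 0.00018). D. simulans was close to D. ananassae in both genes, and against D. simulans alone Ir40a differed by 0.49 (adjusted p = 0.024) and Ir93a by 0.21 (adjusted p = 0.32). The amine receptor gene Ir41a was higher too (1.61 ± 0.11), and so was Gr21a, a subunit of the carbon dioxide receptor, with 2681 and 3103 in D. ananassae, against D. sechellia at 1598 and 1403, D. simulans at 1354 and 1416 and D. erecta at 980 and 1215 (1.14 ± 0.12, adjusted p = 0.00041). Its partner Gr63a rose by 0.68 on the log2 scale (adjusted p = 0.0021), and was not called against each species.

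**Figure D3:**
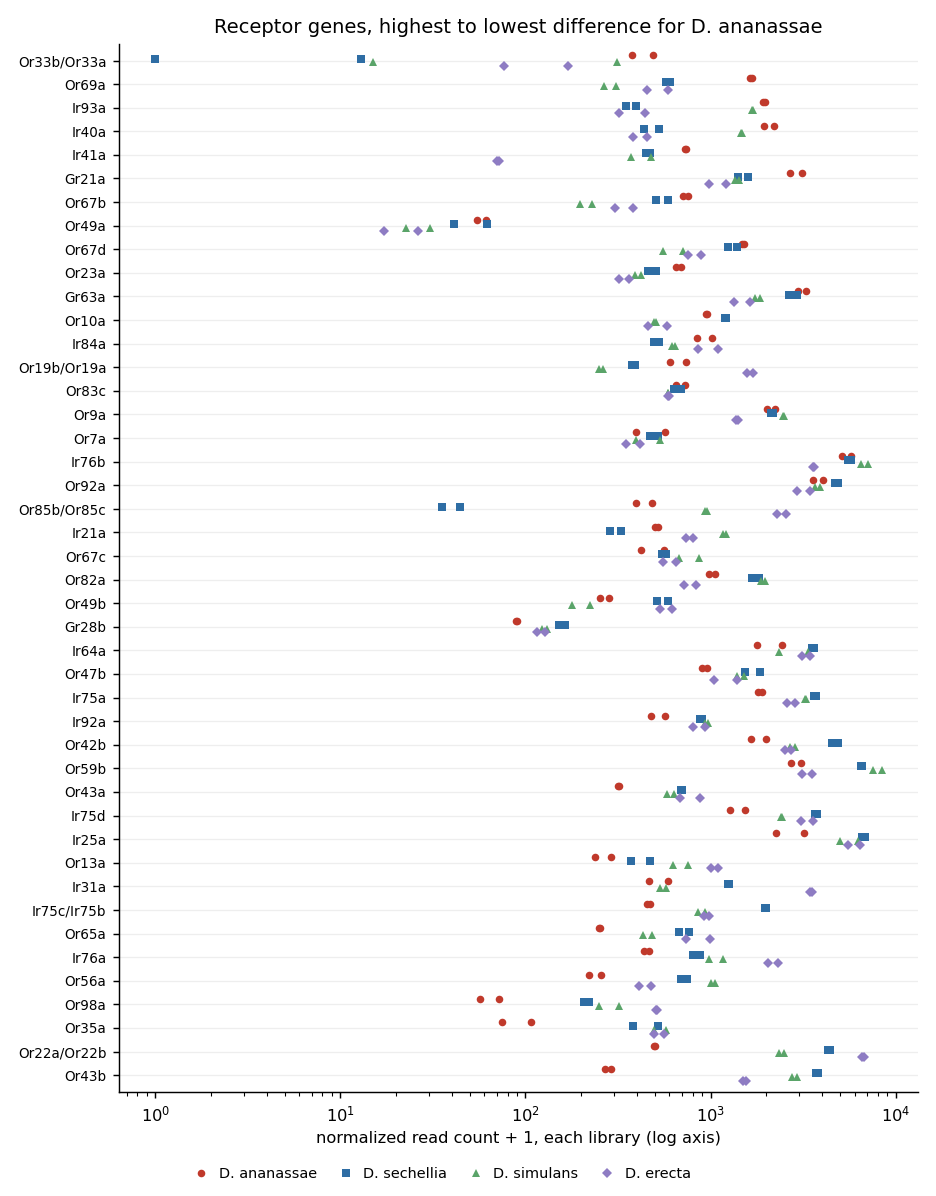
Normalized read count + 1 (log axis) in each library for 44 receptor genes with recovered values, ordered from the highest to the lowest log2 difference of D. ananassae from the 3 others. In the lowest rows, among them Or22a/Or22b and Or43b, the D. ananassae circles lie left of all 6 other libraries, and for Or69a, Ir40a and Gr21a they lie right of them.

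Of 25 odorant-binding protein genes in the comparison, 10 had no library values. By the authors' means, Obp83a, which is co-expressed with Obp83b in trichoid sensilla, stood at 274800 in D. ananassae, against D. sechellia at 176263, D. simulans at 155636 and D. erecta at 84526. Obp28a stood at 70932 in D. ananassae, against D. sechellia at 27417, D. simulans at 34218 and D. erecta at 42667. Obp19d was lower in D. ananassae, at 84488, against D. sechellia at 454816, D. simulans at 415665 and D. erecta at 521817. The joined Obp56e/Obp56d was at 216 in D. ananassae, against D. sechellia at 11816, D. simulans at 21637 and D. erecta at 31704. Obp83b and lush, which carries the pheromone response of trichoid neurons, differed little, by 0.06 and 0.24 on the log2 scale.

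Of the 15 Obp genes tested, 6 were higher, 3 lower and 6 not called. The share called, 60.0%, was below the 69.9% of all genes. Obp56g had 389 and 243 in D. ananassae, against D. sechellia at 1.11 and 8.92, D. simulans at 19.1 and 7.42 and D. erecta at 20.7 and 16.1 (4.88 ± 0.65, limma adjusted p = 0.0011). Obp50a had 50.1 and 82.0 in D. ananassae, and at most 6.90 in the other species (4.10 ± 0.55, adjusted p = 0.0011). Obp73a was the lowest, with 20.1 and 8.48 in D. ananassae, against D. sechellia at 127 and 90.6, D. simulans at 476 and 559 and D. erecta at 55.2 and 41.4 (-3.31 ± 0.33, adjusted p = 0.00034). The calls of Obp99a, Obp49a, Obp44a and Obp83g each fell past 0.05 without one of the D. ananassae libraries, at adjusted p of 0.058 (without b), 0.19 (without a), 0.056 (without a) and 0.091 (without b). Among perireceptor genes, Snmp2, a homolog of the pheromone-sensing Snmp1, had 4587 and 3647 in D. ananassae, against D. sechellia at 69.0 and 62.4, D. simulans at 3.83 and 43.6 and D. erecta at 1364 and 1588 (5.18 ± 0.78, adjusted p = 0.0019). Against D. erecta alone Snmp2 differed by 1.47 and was not called (limma adjusted p = 0.22). Snmp1 itself had means of 30803 in D. ananassae, against D. sechellia at 26777, D. simulans at 21495 and D. erecta at 49656, and a5, of the phosphatidylethanolamine-binding family, 30375 in D. ananassae, against 142029, 69199 and 94732.

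Enzymes of detoxification diverged in both directions. Of 44 cytochrome P450 genes tested, 16 were higher and 20 lower, and 65.9% were called with a difference above 1, against 32.2% of all genes. Cyp309a2 (4.67 ± 0.65) stood at the upper end, and Cyp4d8, the joined Cyp4e1/Cyp4e2/Cyp4e3 (-7.55 ± 0.33) and Cyp12d1-d/Cyp12d1-p (-4.33 ± 0.38) at the lower. Glutathione S-transferases were higher in 10 and lower in 6 of 19 tested, beside 35.4% higher and 34.5% lower of all genes. GstD7 had 3770 and 3954 in D. ananassae, against D. sechellia at 20.0 and 18.6, D. simulans at 129 and 116 and D. erecta at 131 and 130 (5.81 ± 0.07, limma adjusted p = 1.6e-06), whereas GstE3 had 866 and 561, against 2944 and 3115, 5988 and 7600, and 7139 and 7851 (-2.94 ± 0.19, adjusted p = 7.5e-05). UDP-glycosyltransferases were lower in 5 and higher in 2 of 7 tested, beside 34.5% lower and 35.4% higher of all genes. Of the 5, among them Ugt86Dd (-4.42 ± 0.23), 3 were called lower than each species.

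Of the immune genes tested, more were higher than lower in D. ananassae, beside 35.4% higher and 34.5% lower of all genes. Of 18 genes of peptidoglycan recognition and the Toll and Imd pathways, 10 were called higher and 5 lower, and of 7 antimicrobial peptide genes 4 were higher and 1 lower. Drosocin (Dro) had 1327 and 203 in D. ananassae, against D. sechellia at 3.34 and 4.46, D. simulans at 5.10 and 1.86 and D. erecta at 48.3 and 41.4 (5.74 ± 0.71, limma adjusted p = 0.00084). PGRP-SB1 had 513 and 93.3 in D. ananassae, against at most 23.0 in the others (4.10 ± 0.74, adjusted p = 0.0038), and DptB 419 and 67.8, against at most 49.0 (3.98 ± 0.80, adjusted p = 0.0059). DptB was not called against D. sechellia alone (limma adjusted p = 0.082). In all 3 genes D. ananassae a was several times higher than D. ananassae b, as it was for heat shock genes, and the part of that library in the result was not tested beyond leaving it out. Without D. ananassae a, 3 antimicrobial peptide genes and 9 genes of recognition and the pathways were called higher, and 1 heat shock gene was, against 4 heat shock genes with all libraries. AttC, an attacin, ran the other way at 0 and 2.83 in D. ananassae, and Dredd, the caspase of the Imd pathway, fell to 152 and 119, against D. sechellia at 3941 and 4347, D. simulans at 534 and 539 and D. erecta at 1916 and 2147 (-3.61 ± 0.12, adjusted p = 1.4e-05).

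Mitochondrial ribosomal protein genes were lower as a group. Of 64 tested, 41 were called lower (64.1%, against 34.5% of all genes), 6 higher and 17 not at all, with a median log2 difference of -0.49. Most shifts were small, and mRpS11 had 249 and 232 in D. ananassae, against D. sechellia at 830 and 814, D. simulans at 616 and 638 and D. erecta at 649 and 745 (-1.56 ± 0.08, limma adjusted p = 4.2e-05). Over single libraries left out, 32 to 44 were lower and 3 to 6 higher. Proteasome subunits were lower in 14 of 28 and higher in 1, beside 34.5% and 35.4% of all genes. Their median was -0.25, with no member past 1, and 53.6% were called, against 69.9% of all genes. Cytoplasmic ribosomal protein genes, of which 36 of 71 had library values, were higher in 10 (27.8%) and lower in 8 (22.2%), both below the shares of all genes. Scaling every library to the same median moved no library by more than 0.067 on the log2 scale. Of the 99 names of respiratory chain and ATP synthase genes, 75 were listed at 0 in D. erecta, so only 8 were in the comparison. Of the 6 tested, 5 were lower, beside 34.5% of all genes.

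Genes of neuronal function went both ways. Of 15 genes of excitability and synapse, 6 were higher and 6 lower, against 35.4% higher and 34.5% lower of all genes. Those with the largest differences were lower. The potassium channel gene Sh had 58.1 and 42.4 in D. ananassae, against D. sechellia at 635 and 514, D. simulans at 485 and 893 and D. erecta at 1125 and 973 (-3.86 ± 0.26, limma adjusted p = 9.1e-05), and Shab (-2.78 ± 0.11), unc-13 (-2.50 ± 0.19) and eag (-2.04 ± 0.15) were lower too. On the higher side, in genes chosen after their values were seen, were nSyb, the synaptic vesicle synaptobrevin (1.75 ± 0.08), the potassium channel gene Shal (1.70 ± 0.10) and Syt1, the calcium sensor of vesicle release (1.27 ± 0.08). Among transcription factors of olfactory neurons, acj6, a POU factor that sets receptor choice, had 77.2 and 76.3 in D. ananassae, against D. sechellia at 604 and 507, D. simulans at 343 and 447 and D. erecta at 639 and 642 (-2.74 ± 0.13, adjusted p = 3.3e-05). The related POU factor gene pdm3 was higher, with 5386 and 6080 in D. ananassae, against D. sechellia at 1423 and 1409, D. simulans at 2496 and 2772 and D. erecta at 1801 and 1972 (1.58 ± 0.09, adjusted p = 5.0e-05), and dac was higher as well (1.31 ± 0.10). Of the clock genes, vri (1.95 ± 0.15), cwo (1.25 ± 0.07) and cry (1.24 ± 0.13) rose and cyc fell (-0.66 ± 0.07). The time of day of dissection was not given in the sources used here.

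Markers of cells other than neurons and their support cells moved too. All 9 haemocyte genes tested were called lower than the mean of the 3 others, beside 34.5% of all genes. Against each of the 3 species 5 were called lower, among them Ppn, Pxn and NimC1. Hml, in contrast, had 507 and 382 in D. ananassae, against 191 and 260 in D. erecta. By means, vkg was also higher in D. ananassae (1185) than in D. sechellia (926), and eater (36.4) than in D. erecta (27.6). The summed level of haemocyte markers over 10 listed genes was 6674 and 4045 in D. ananassae, against 10142 to 16621 in the other libraries. Muscle genes were lower in 11 of 15 and higher in 1, beside 34.5% and 35.4% of all genes, and summed to 2558 and 2562 in D. ananassae, against D. sechellia at 7767 and 10306, D. simulans at 2288 and 3515 and D. erecta at 17223 and 23205. Mhc, the muscle myosin heavy chain, had 12.03 and 2.83 in D. ananassae, against D. sechellia at 1215 and 1645, D. simulans at 52.3 and 39.0 and D. erecta at 5445 and 4165 (-6.58 ± 0.46, limma adjusted p = 1.0e-04), while the troponin gene TpnC41C was higher (4.08 ± 0.19). Of 9 fat body markers, 4 were lower and 5 not called, beside 34.5% and 30.1% of all genes. The yolk protein genes Yp1 and Yp2 were lower (-3.32 ± 0.37 and -3.40 ± 0.34), while Lsp1beta (1.34), Rfabg (0.27) and Lsp1gamma (0.22) had positive differences that did not pass the test. Of 8 photoreceptor genes tested, 1 was higher, 1 lower and 6 not called, beside 35.4%, 34.5% and 30.1% of all genes. The opsin gene ninaE had 6.02 and 11.3 in D. ananassae, against D. sechellia at 147 and 18752, D. simulans at 537 and 104 and D. erecta at 48.3 and 98.9 (-5.03 ± 1.81, adjusted p = 0.049). The gene inaD, a scaffold of phototransduction, had 1161 and 738 in D. ananassae, against D. sechellia at 5.56 and 611, D. simulans at 28.1 and 7.42 and D. erecta at 11.5 and 13.8 (5.28 ± 1.65, adjusted p = 0.030). Both calls depended on single libraries. That of ninaE was lost without either library of D. ananassae, D. simulans or D. erecta (adjusted p of 0.061 to 0.18), and that of inaD without either library of D. ananassae or D. erecta or without D. simulans b (0.060 to 0.13). Of 4 germ line genes tested, 2 were called higher and 2 lower, beside 35.4% and 34.5% of all genes. Germ line markers summed over 8 listed genes to 2200 and 2271 in D. ananassae, against 74.2 to 949 in the other libraries. Most of the D. ananassae sum came from genes listed at 0 in some species and so outside the comparison. Of the 4 tested, bam was the highest in D. ananassae, at 132 and 153. Of 5 glia genes tested, 1 was higher, 2 lower and 2 not called, beside the same shares of all genes. Whether these shares of other tissue bear on the receptor and immune genes was not tested.

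**Figure D4:**
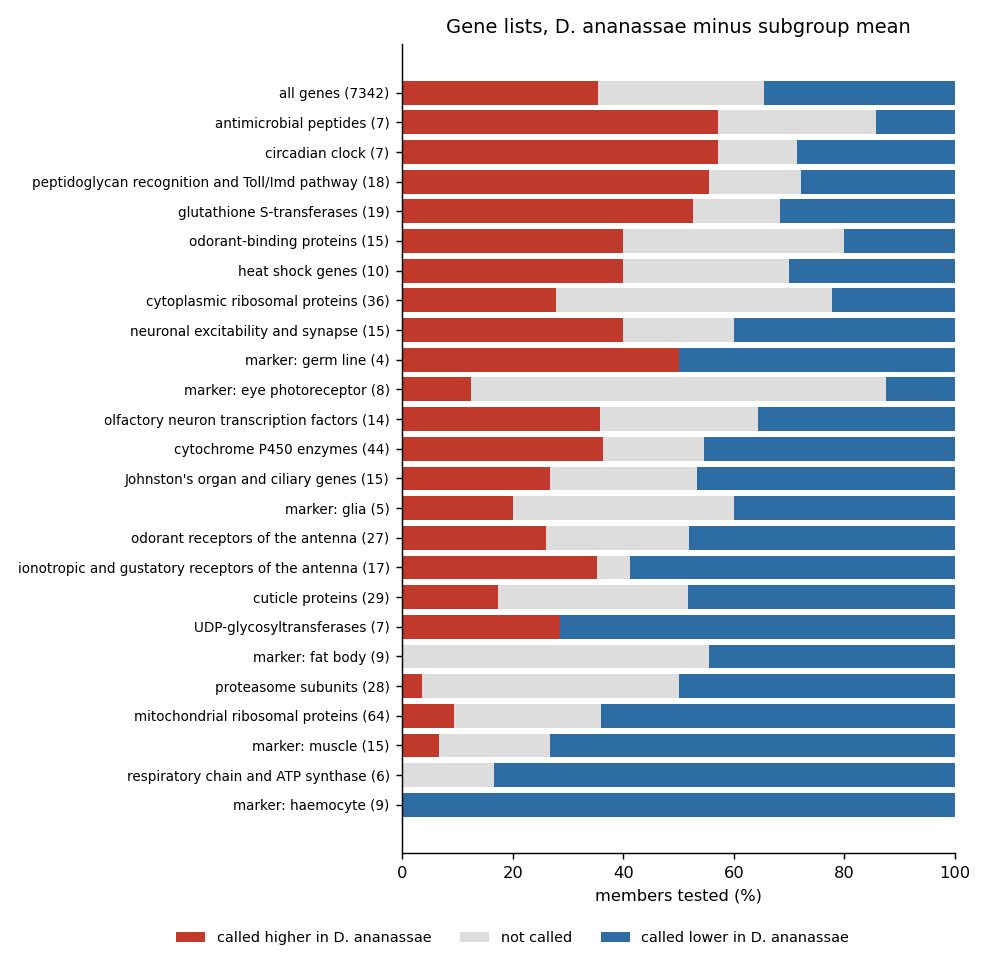
Share of tested members of each gene list (x axis, percent) called higher in D. ananassae, not called, or called lower in D. ananassae than the mean of the 3 others, with the number tested in brackets and all 7342 genes in the top row. Mitochondrial ribosomal protein, muscle and haemocyte genes were mostly called lower, and immune genes more often higher than lower. Of proteasome genes 50% were called lower, 3.6% higher and 46.4% not called.

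The specific genes of the adult antenna were followed back into development, in libraries that had no part in their choice. The transcriptome and orthologs of a species were the same at every stage. A difference in gene model or assigned ortholog could therefore recur at each stage, which was not tested. Of the 1173 genes higher than each of the 3 species in the adult antenna, 602 of the 999 tested in larval antennal discs (3L) were also higher in D. ananassae (60.3%, against 33.7% of all genes at 3L), and 132 were lower (13.2%, against 33.7%). At p8 this was 628 of 1059 higher (59.3%, against 30.7%) and 104 lower (9.82%, against 29.4%), and at p40 650 of 1093 higher (59.5%, against 28.9%) and 101 lower (9.24%, against 29.3%). The median log2 difference of these genes was 0.46 at 3L, 0.54 at p8 and 0.62 at p40. Of the 1239 lower genes, 581 of 962 were lower at 3L too (60.4%, against 33.7%) and 129 higher, 603 of 1050 at p8 (57.4%, against 29.4%) and 118 higher, and 662 of 1136 at p40 (58.3%, against 29.3%) and 96 higher. Their median was -0.53 at 3L, -0.57 at p8 and -0.65 at p40. Among genes tested at all stages, 377 of 962 were higher and 354 of 917 lower at 3L, p8 and p40 alike, and 70 and 68 were called in neither direction before the adult.

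The stages differed by gene. SkpB was higher at 3L (5.30), p8 (4.10) and p40 (2.66), and CG13965 at 6.38, 6.24 and 5.12. DNaseII was higher at 3L (3.74) and p8 (2.40) and differed by 0.42 at p40 without passing the test. Of the receptors, Or22a/Or22b was already lower at p40 (-4.10), Ir25a was lower at 3L (-4.49), p8 (-3.31) and p40 (-4.99), and acj6 at p40 (-3.70). Gr21a, higher in the adult antenna, was lower at p40 (-1.19).

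**Figure D5:**
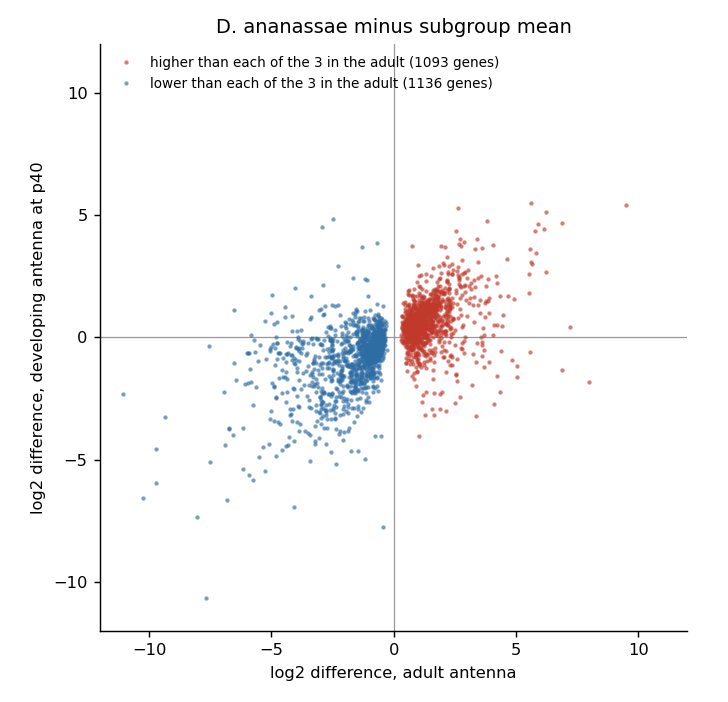
Log2 difference of D. ananassae from the mean of the 3 others in the developing antenna at p40 (y axis) against that in the adult antenna (x axis), for genes higher or lower than each of the 3 species in the adult antenna. Of 1093 genes higher in the adult antenna 650 were called higher at p40 and 101 lower, and of 1136 lower ones 662 were called lower and 96 higher.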

How the data were processed

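Poly(A) RNA of pooled antennae was sequenced by the authors as 50-base paired reads from a stranded kit, with base calls by CASAVA 1.8 per the submitters' processing notes. The authors aligned the trimmed reads with BWA 0.7.8 against the FlyBase transcriptome of each species, counted them per gene, assigned FlyBase orthologs (only the most abundant transcript where there were several) and used DESeq2 to normalize the species of a stage jointly. The deposited signal is the resulting normalized count averaged over both libraries of a species at a stage. There are 24 such columns. Libraries of D. melanogaster were not analysed here, and its 4 columns were used as the authors' means only.

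Each mean was split into its pair of library counts where no more than 1 pair of integers could produce it. On simulated data 99.4% of 12761 D. ananassae values were split, and 0 wrongly. The recovered libraries carry no replicate numbers of the labels. limma 3.58.1 in R 4.3.3 modelled log2(value + 1) by species over 7342 genes, with Benjamini-Hochberg adjustment over all of them. On simulated data for D. ananassae against the subgroup mean it called 98 of 100 genes changed by 1 on the log2 scale, 52 of 100 changed by 0.5, and 20 of 7142 unchanged genes. There all genes had the same dispersion and few were changed. These rates therefore need not hold in the real libraries, where most genes were called and spreads differed by gene. Python 3.11.15 with numpy 2.4.6, pandas 2.3.3 and matplotlib 3.10.9 did the rest.

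Named genes were the 12 highest and 12 lowest among genes called against each of the 3 species, with libraries that did not overlap and more than 200 counts in some species; the same again among genes with a name other than a CG number; list members called with a difference above 1 (receptors, Obp and perireceptor genes) or the 4 largest of each other list; the 5 largest D. ananassae means; and the genes of the study's qPCR. The members and lists were chosen with earlier results of these data known. Alternatives were other minimum counts, pseudocounts, scaling, a variance trend, D. virilis in the fit, D. melanogaster among the subgroup, and leaving out each library. Alternatives chosen after seeing the data were to count every listed name as a gene and to require a difference above 1. Intervals were not computed for single counts, and standard errors cover the spread between libraries only.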

Additional observations from a re-analysis of the deposited data

Results flagged for a closer look

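The libraries of D. ananassae lay on one side of all 6 others in the adult antenna and on the opposite side at an earlier stage for a number of the named genes, and the difference between stages was not tested. Of the genes higher in the adult antenna, CG7135 (7.97) and CG8563 (6.89) were lower at p8, by log2 differences of -3.64 and -1.13. PGRP-SB1 (4.10 in the adult antenna) was lower at 3L (-2.14), Hsp67Bc (2.35) at 3L (-2.86) and p40 (-0.93), and the cryptochrome gene cry (1.24) at 3L (-5.88) and p40 (-0.99).

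Of the genes lower in the adult antenna, the detoxification genes ran most strongly the other way. GstE3 (-2.94) was higher at p8 (7.72) and p40 (4.52), Cyp12d1-d/Cyp12d1-p (-4.33) at p8 (3.08) and Ugt86Dd (-4.42) at 3L (3.16). The cuticle gene Cpr57A (-4.96) was higher at 3L (1.39) and p40 (1.74). At 3L, Ir75d (-1.16) differed by 0.91, mRpL55 (-1.49) by 0.84 and the haemocyte gene NimC1 (-1.77) by 1.48, and at p8 Crg-1/fd3F (-1.81) by 0.61 and Pxn (-2.15) by 0.69, all higher in D. ananassae.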

How the results depend on the processing

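Of 155 alternative values of the counts and shares, 141 stayed within 1.5 times the count or within 1 SD of the share. Under the planned settings with no library left out, genes called numbered 4272 of 5950 tested (71.8%) to 5385 of 8021 (67.1%), against 5133 of 7342 (69.9%). As shares they ran from 65.2% with no minimum to 73.1% at a minimum of 200. Requiring a difference above 1 left 2361 of the 5133. Genes called against each species numbered 1982 of 5950 (33.3%) to 2517 of 7342 (34.3%), against 2412 (32.9%). As shares these ran from 29.7% with no minimum to 35.2% at a minimum of 200. The share of genes with D. ananassae outside the 3 others (61.7%) was 60.9% among genes above 50 in all 4 species, 52.6% with D. melanogaster added to the subgroup, and 61.0% to 62.8% without single libraries. The median absolute difference (0.635) was 0.675 at a minimum of 10, 0.592 at 200, 0.526 above 50 in all 4 species, 0.679 with no minimum, 0.648 from the median and 0.321 from the nearest of the 3 others, and 0.635 to 0.654 without single libraries. A cause for these shifts was not tested beyond the change in the genes or species included.

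Of the named genes, elav changed sign without D. ananassae a (-0.018, the lowest, against 0.143 without D. ananassae b, the highest) and Act42A/Act5C without D. ananassae b (-0.040) and without D. simulans b (-0.38), neither being called with all libraries. Without D. simulans a, where Act42A/Act5C stood at 17280 against 1600 in D. simulans b, it was called (0.76, limma adjusted p = 0.0094). Calls were lost under 74 of 2485 settings of the named genes, in 18 genes. A fit without one library leaves that species a single library, which is assumed to vary like the others. No paired analysis was possible because the species means and the libraries recovered from them carry no replicate numbers. The 171 genes without library values have differences without an error.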

Other observations

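D. melanogaster, itself of the subgroup, and D. virilis, an outgroup, were set beside the D. ananassae-specific genes by the authors' means. Of the 1156 genes higher in D. ananassae than in each of the 3 species and above 0 in D. melanogaster, 288 (24.9%) had a D. melanogaster mean nearer to D. ananassae than to the mean of the 3, and of 1233 lower genes 276 (22.4%) did. For D. virilis this held for 325 of 1126 higher genes (28.9%) and 401 of 1193 lower genes (33.6%). The same shares over all genes were not computed. These genes were chosen because D. ananassae lay apart from the same 3 species, so the shares do not show in which lineage a level changed. For Or22a/Or22b, D. ananassae had 497, against 4368 in D. sechellia, 2420 in D. simulans and 6636 in D. erecta, with 1394 in D. melanogaster and D. virilis listed at 0. For Obp56g, D. ananassae (316) was set apart from the 3 others and from D. melanogaster (6.91), while D. virilis had 1420.

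Names listed at 0 in D. ananassae and above 50 in each of the 3 others numbered 174, against 76 for D. sechellia, 590 for D. simulans and 152 for D. erecta. Names above 50 in one species and listed at 0 in the 3 others numbered 52 for D. ananassae, 22 for D. sechellia, 15 for D. simulans and 175 for D. erecta. The highest of the names at 0 in D. ananassae was a10, of the chemosensory protein family, at 197552 in D. sechellia, 128148 in D. simulans and 246753 in D. erecta. The ribosomal protein gene RpL39, which every cell uses, was also listed at 0 in D. ananassae, so a listed 0 is no measure of absence.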
